A study of Mus musculus with 16 samples.

Results

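Unilateral ureteral obstruction (UUO) closes the ureter of 1 kidney, so that urine backs up and tubule cells are stretched and injured. The difference between genotypes in the response to UUO was measured here as an interaction on log2 intensities. It is the response of IL-33-deficient (KO) kidneys, UUO minus control, minus the response of wildtype (WT) kidneys. All 16 of 16 arrays of the series and all 18132 of 18132 genes entered it, with no choice of genes by their values. Mice lacked Il33 or were wildtype on a C57BL/6J BomTac background, and their age was 8 weeks unless the study states otherwise. Whole-kidney RNA came from 7 WT and 5 KO kidneys 24 h after the left ureter was closed with a metal clip. The untreated controls were 2 WT and 2 KO kidneys. The obstructed kidneys came in set 1 (3 WT, 2 KO) and set 2 (4 WT, 3 KO), and the labels give no set for the controls, so a difference between sets enters both responses and cannot be told apart from the response to UUO.

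IL-33 is a cytokine of the IL-1 family that is stored in the nucleus of endothelial and epithelial cells and let out when cells are damaged. By staining at a later time after UUO than here, the study found IL-33 mainly in myofibroblasts and saw none in endothelial cells. Its receptor ST2, encoded by Il1rl1, signals through MYD88 to NF-kappaB in mast cells, type 2 innate lymphoid cells and other leukocytes. Obstruction injures the tubule and calls up leukocytes and matrix-forming stromal cells. An interaction above 0 means that the change from control to UUO was more positive in KO than in WT kidneys. Such a value can come from the obstructed kidneys, from the controls, or from both, so the KO minus WT difference within the controls and within the obstructed kidneys is given beside it for most single genes, in the text as controls and UUO or in the plot of the genotype difference.

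Several kidney markers were bright in every array. Slc34a1, the phosphate transporter of the proximal tubule, lay at 12.23 to 14.35 on the log2 scale, and Umod, the uromodulin of the thick ascending limb, at 12.70 to 13.95. The median over all genes and arrays was 7.053. By contrast Lrp2, the megalin gene of the proximal tubule, read 7.05 to 7.63. Ptprc, the gene of the leukocyte marker CD45, stayed at 6.76 to 6.92, close to the floor of the table at 6.589, so its probe tells little about leukocytes in these kidneys. Adipoq, a gene of fat cells, lay at 6.80 to 7.24, and Cyp11b1, of the adrenal cortex, at 6.71 to 7.04.

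Il33 itself separated the genotypes in every array. WT controls read 7.62 and 8.02 and WT UUO kidneys 8.39 to 9.57 (median 9.44), while KO controls read 6.88 and 6.85 and KO UUO kidneys 6.88, 6.80, 7.02, 6.88 and 6.88. Il33 rose in WT kidneys by 1.43 (adjusted p 8.2e-04), and in KO kidneys, which lack the gene, the response was 0.025. The interaction of Il33 was -1.41 (95% CI -2.09 to -0.72, adjusted p 0.899, exact permutation p 0.127). The lowest WT UUO value, in kidney 3818, decided the call of Il33: without 3818 the interaction was -1.55 with an adjusted p of 0.0021, in set 2 alone it was -1.55 with an adjusted p of 8.9e-04, and without WT UUO 3818 and 3820 it was -1.61 with an adjusted p of 8.4e-05.

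**Figure D1:**
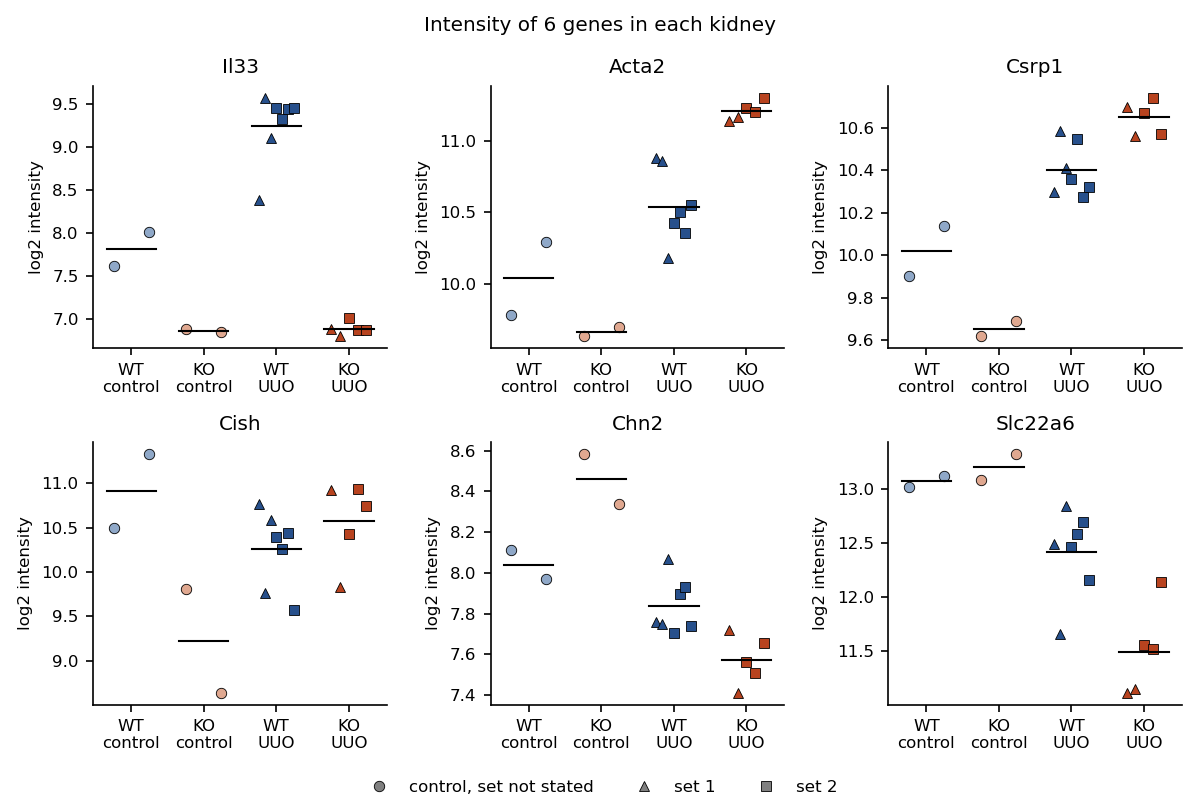
Log2 intensity of Il33, Acta2, Csrp1, Cish, Chn2 and Slc22a6 in each of the 16 kidneys by genotype and treatment, with circles for controls, triangles for set 1, squares for set 2 and bars for group means. Acta2 of the KO UUO kidneys lay at 11.14 to 11.30, above the 10.18 to 10.88 of the WT UUO kidneys, and Cish differed between the genotypes mainly in the controls.

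No gene passed the interaction test: limma gave 0 genes (0.00%) at an adjusted p under 0.05, and the smallest adjusted p was 0.832. At an unadjusted p under 0.05 there were 860 genes (4.74%), where p-values with no difference anywhere would give 5.0%. Of these, 442 (2.44%) had an interaction above 0 and 418 (2.31%) below 0. Looser criteria that the study set for another contrast (fold change above 1.3, unadjusted p below 0.05 and adjusted p below 0.25) also gave 0 genes here. Other settings that tested all genes gave 655 to 1237 genes at an unadjusted p under 0.05, and a fit of the 9066 brighter genes gave 412 (4.54%). With set as a covariate among the obstructed kidneys there were 942, with 0 at an adjusted p under 0.05. Precision is limited by the number of arrays, with 12 obstructed kidneys and 2 controls per genotype. The median standard error of the interaction was 0.0905, the median half-width of the 95% CI was 0.193, and for 97.1% of genes the CI lay inside -1 to 1. Dim genes narrow these values: for the brighter genes the half-width was 0.281 and 94.3% lay inside. Each kidney gave 1 array, so p-values measure spread between kidneys. A p that misses the threshold does not show that the responses were equal.

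The genotypes were next compared by the genes called in each. In WT kidneys 2754 genes (15.2%) were called, 1263 higher and 1491 lower after UUO, and in KO kidneys 3955 (21.8%), 1916 higher and 2039 lower. Of the WT calls 2349 (85.3%) were also called in KO, and none of these changed in the opposite direction. Among the genes called in both, the change was larger in KO for 1918 (81.7%), and the interaction had an unadjusted p under 0.05 for 169 (7.19%). A further 1606 genes were called in KO only and 405 in WT only, and of these 278 (17.3%) and 74 (18.3%) had an interaction p under 0.05, with 0 at an adjusted p under 0.05. The share of all genes was 4.74%, but genes called in 1 genotype only are chosen for a gap between the responses. A call in 1 genotype only is thus not a tested difference. Over all genes the WT and KO responses had a Pearson r of 0.940 and a Spearman rho of 0.722, which describe the genes and carry no p, since genes are not independent replicates. The count of WT calls depended on single controls and on the set: it was 1051 without WT control 3811, 809 without WT control 3812, 188 in set 1 alone and 4241 in set 2 alone. With set as a covariate there were 1993 WT and 3362 KO calls. That fit coded the controls like set 1, so its counts of calls describe the response at the level of set 1 and depend on this coding. KO calls numbered 2276 without KO control 3813, 2575 without KO control 3814, 2258 in set 1 alone and 4453 in set 2 alone. The gap between the genotypes was thus small in set 2, and also without WT UUO 3818 and 3820, with 4116 WT and 4565 KO calls. Genes called in both numbered 971 without WT control 3811, 750 without WT control 3812 and 178 in set 1 alone.

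**Figure D2:**
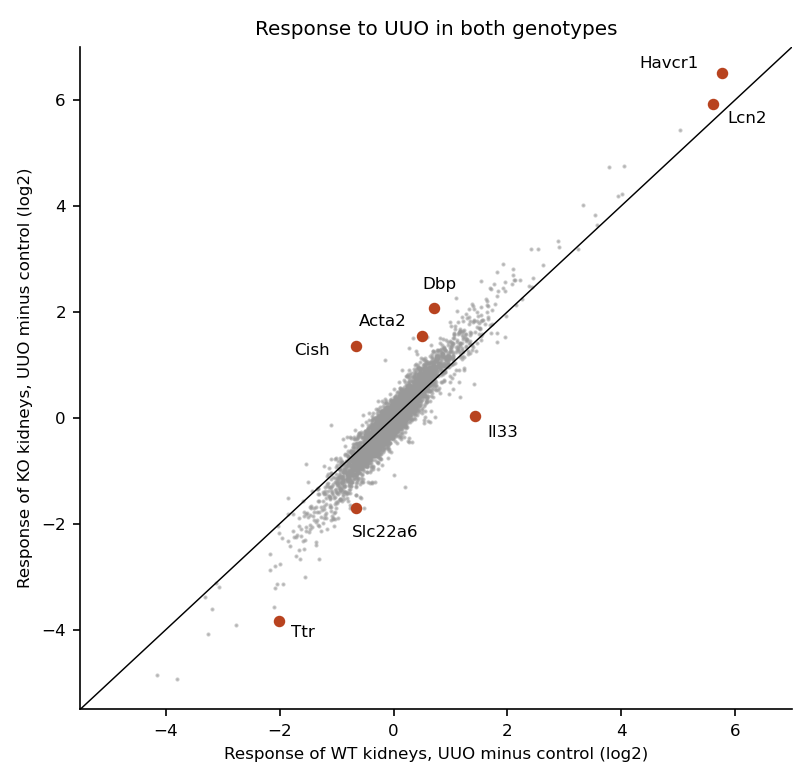
Response to UUO (UUO minus control, log2) of each of 18132 genes in WT kidneys on the horizontal and KO kidneys on the vertical axis, with the line of equality and 8 genes labelled. Acta2 and Cish lie above the line, while Il33, Ttr and Slc22a6 lie below it.

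Genes that passed the test of the mean response over both genotypes moved further in KO kidneys by their medians. Of the 2482 genes (13.7%) that rose, 1981 (79.8%) had an interaction above 0, against 50.7% of all genes. Their median response was 0.31 in WT and 0.42 in KO kidneys, and their median interaction was 0.113, against 0.00161 over all genes. Of the 2635 genes (14.5%) that fell, 1970 (74.8%) had an interaction below 0, with a median of -0.094 and median responses of -0.30 and -0.38. An unadjusted interaction p under 0.05 was found for 184 (7.41%) of the genes that rose and 218 (8.27%) of those that fell, against 4.74% of all genes. The control difference of the genes that rose had a median of -0.019 and the UUO difference 0.088, so the obstructed kidneys carried more of it. For the genes that fell these medians were 0.027 and -0.053.

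Not every WT kidney lagged. The median of the genes that rose, taken from each kidney's own controls, was 0.227 in WT UUO 3818 and 0.138 in 3820, both of set 1, against 0.339 to 0.402 in the other 5 WT kidneys and 0.383 to 0.449 in the 5 KO kidneys. WT 3819, the remaining WT kidney of set 1, read 0.402. Without 3818 and 3820 the median interaction was 0.0540 for the genes that rose and -0.0489 for those that fell, 66.0% and 63.6% of them in the direction given above. Set 1 alone gave 0.195 and -0.147, and set 2 alone 0.0507 and -0.0480. WT UUO 3818 and 3820 were picked after their low values were seen, so leaving them out was bound to shrink the difference. No KO kidneys were left out to match, so these values do not settle how much of the difference those WT kidneys made up. Whether their weak response came from the genotype, the obstruction or the sample was not tested.

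**Figure D3:**
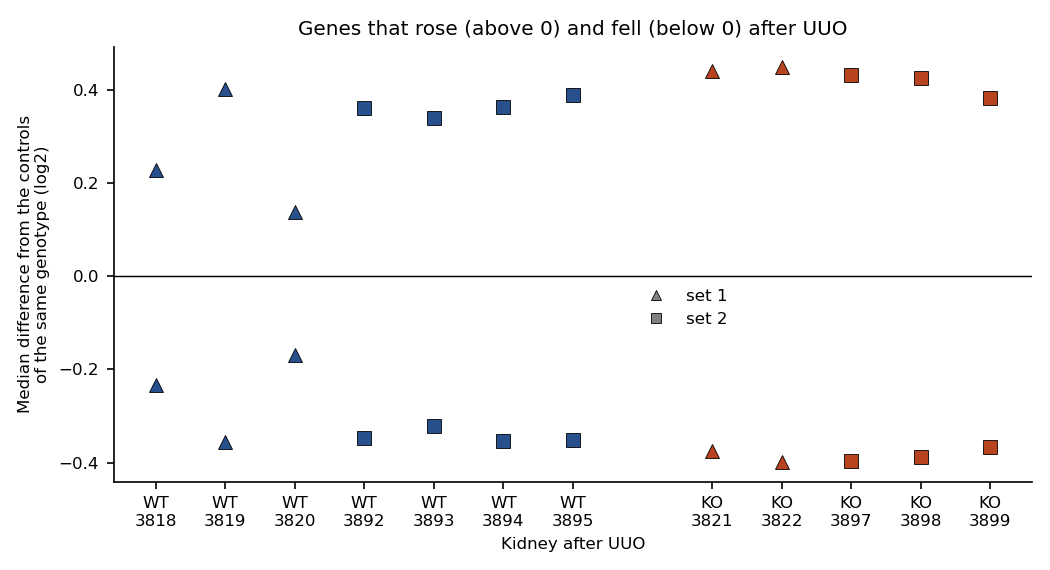
Median log2 change from the mean of the same genotype's controls, for the 2482 genes that rose and the 2635 that fell, in each UUO kidney by genotype and set. WT 3820 and 3818 lie nearest to 0, at 0.138 and 0.227 for the genes that rose, and the KO kidneys lie at 0.383 to 0.449.

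Among the brighter 50% of genes, the 23 reported with the smallest interaction p, 12 above 0 and 11 below 0, had adjusted p-values of 0.832 to 0.973. Exact p-values were computed by permuting the genotype labels within each treatment, 4752 arrangements in all, so that 2.1e-04 is the smallest possible. They test exchangeable genotypes within the treatments, they are not corrected for the choice of 79 named genes out of all genes, and 50 of the 79 were under 0.05. Labels of the obstructed kidneys were exchanged across the sets, and no exact p within sets is given. In the controls the genotypes did not overlap for any of the 23 genes, whereas in the obstructed kidneys they did not overlap for 3 of the 12 with an interaction above 0 and 2 of the 11 below 0. Of the brighter genes as a whole, 35.0% did not overlap in the controls, where there were 2 kidneys per genotype, and 1.15% did not overlap after UUO. A choice by the smallest interaction p favours genes that differ between the genotypes in either treatment. It favours the controls most, since their difference rests on fewer kidneys and is less precise. Of the 860 genes 80.7% did not overlap in the controls. The control difference was the larger in 10 and 8 of the 23 genes, against 48.5% of the brighter genes. Among the 860 genes it was the larger in 610 (70.9%), against 57.1% of all genes. Most of these interactions thus rested on the controls, which a choice by p favours where there are 2 controls per genotype.

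Acta2, which encodes the smooth muscle actin of vessel walls and myofibroblasts, had an interaction of 1.04 (95% CI 0.56 to 1.52, adjusted p 0.832, exact p 4.2e-04). It rose by 0.49 in WT (adjusted p 0.0435) and 1.54 in KO kidneys (adjusted p 2.2e-05), a change of 1.41-fold against 2.90-fold. WT controls read 9.79 and 10.30, KO controls 9.64 and 9.70, WT UUO kidneys 10.18 to 10.88 (median 10.51) and KO UUO kidneys 11.14, 11.17, 11.23, 11.20 and 11.30. The genotypes did not overlap in either treatment, KO being lower by a difference of -0.37 in the controls and higher by 0.67 after UUO. The interaction of Acta2 was 0.89 in set 1 and 1.15 in set 2. Csrp1 encodes a LIM protein that binds the actin skeleton of smooth muscle, and it rose in both genotypes, by 0.38 in WT and 0.99 in KO, with an interaction of 0.61 (exact p 8.4e-04, controls -0.37, UUO 0.25). Cd248, the gene of endosialin on pericytes and fibroblasts, rose by 0.47 and 0.88 with an interaction of 0.41 (exact p 6.3e-04, controls -0.20, UUO 0.21), and its genotypes did not overlap in the controls or after UUO. Tagln, the smooth muscle gene for transgelin, rose by 0.33 and 0.77, and its difference lay in the obstructed kidneys (0.39) and not in the controls (-0.044).

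The sequence before the Acta2 transcription start is given because CArG boxes, the sites of serum response factor, drive this gene in smooth muscle cells. It is the 250 bases upstream of the RefSeq start in GRCm38.p6, chromosome 19, 34255374 to 34255623, minus strand, written in the direction of transcription with boxes in capitals: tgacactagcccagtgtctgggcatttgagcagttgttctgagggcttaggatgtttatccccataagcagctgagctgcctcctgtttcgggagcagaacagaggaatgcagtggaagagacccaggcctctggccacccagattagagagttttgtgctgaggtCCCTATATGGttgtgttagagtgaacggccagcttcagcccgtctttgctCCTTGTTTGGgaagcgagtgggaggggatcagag. A box was CC, then 6 bases with at least 5 A or T, then GG, a rule that reads the same on both strands. Acta2 had 2 boxes, CCCTATATGG and CCTTGTTTGG, which start 84 and 34 bases before the transcription start. Such a box was found for 9.78% of 27025 RefSeq genes, for 2 of 15 smooth muscle genes (Acta2 and Cnn2) and for 4 of 24 matrix genes (Col1a2, Fbln2, Mmp14 and Timp3). The smooth muscle and matrix counts cover only part of the lists used below, which have 20 and 36 measured genes. Binding of serum response factor was not measured.

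**Figure D4:**
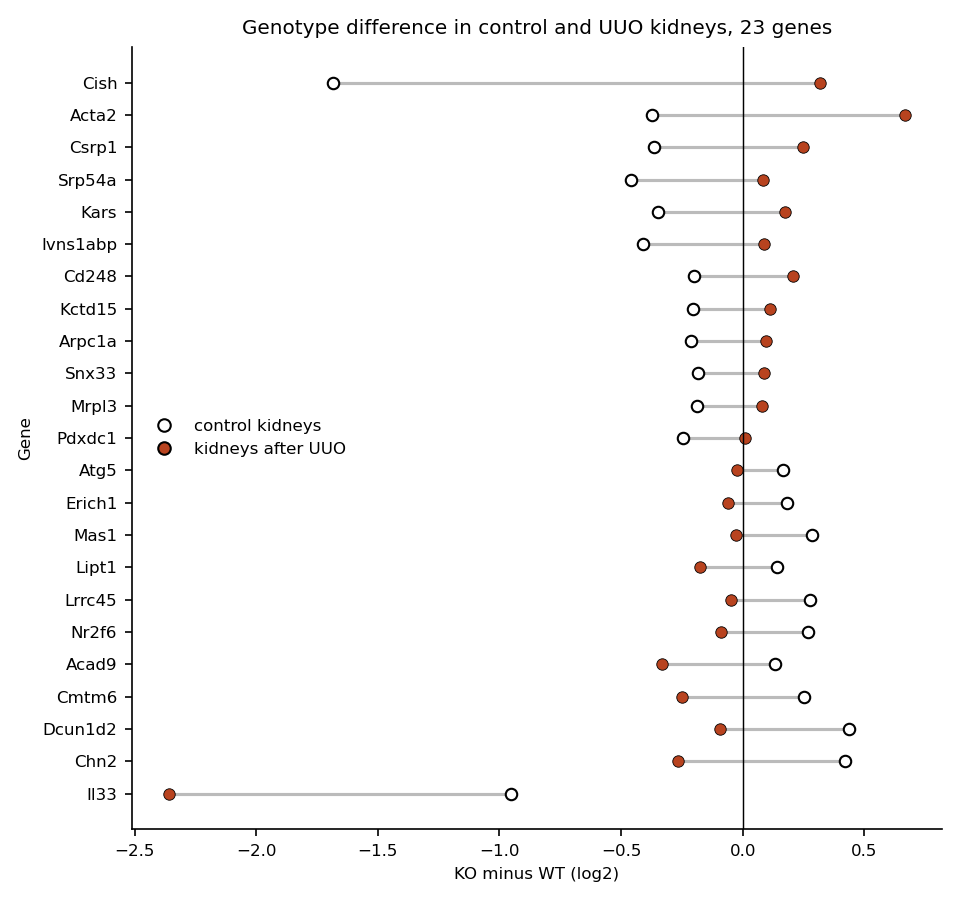
KO minus WT difference in log2 intensity in the controls (open) and after UUO (filled) for the 23 genes reported with the smallest interaction p among the brighter 50% of genes. For Cish the difference was -1.68 in the controls and 0.32 after UUO, and for Il33 it was -0.95 and -2.36.

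Cish encodes a suppressor of cytokine signalling that is induced by STAT5, and it had the largest of the 12 interactions above 0, 2.00 (95% CI 0.87 to 3.13, exact p 0.0412). It rose in KO kidneys by 1.35 (adjusted p 0.0185), with a WT response of -0.65 that was not called (adjusted p 0.296). Its KO controls read 9.81 and 8.64 and its WT controls 10.49 and 11.33, a difference of -1.68, against 0.32 after UUO, so the controls made up most of the value. Mrpl3, of the mitochondrial ribosome, had the smallest possible exact p, 2.1e-04, for an interaction of 0.27, and Snx33, a sorting nexin, had 0.27 (exact p 6.3e-04, controls -0.18, UUO 0.087). Srp54a of the signal recognition particle had 0.54 (exact p 0.0255, controls -0.46, UUO 0.082), and the lysyl-tRNA synthetase gene Kars 0.52 (exact p 0.00673, controls -0.35, UUO 0.17). The KO responses of Srp54a and Kars, 0.78 and 0.54, were called. Those in WT were not (adjusted p 0.076 and 0.959), and for Srp54a the threshold was missed narrowly. Of the 12 genes above 0, 10 were called in KO and 5 in WT, so this is not particular to these genes. The others were Ivns1abp (0.50), Kctd15 (0.32), the actin-branching gene Arpc1a (0.31) and Pdxdc1 (0.26, exact p 0.122, controls -0.25, UUO 0.011).

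Below 0, Chn2, the gene of a Rac-inactivating chimaerin, had an interaction of -0.68 (95% CI -0.99 to -0.38, exact p 6.3e-04). It fell in KO kidneys (response -0.89, adjusted p 4.1e-05), with a WT response of -0.20 that was not called (adjusted p 0.203). KO controls (8.58 and 8.34) stood above WT controls (8.11 and 7.97), and the KO minus WT difference was 0.42 in the controls and -0.26 after UUO. Acad9 encodes a mitochondrial acyl-CoA dehydrogenase needed to build complex I, and its difference lay more in the obstructed kidneys (-0.33) than in the controls (0.13). It fell in both genotypes, -0.46 and -0.93, and after UUO the genotypes did not overlap (interaction -0.46, exact p 4.2e-04). The remaining genes below 0 have little in common by role. They were Dcun1d2 (-0.53), Cmtm6 (-0.50), the nuclear receptor gene Nr2f6 (-0.36), Lrrc45 (-0.33), Lipt1 (-0.32), the angiotensin-(1-7) receptor gene Mas1 (-0.31), Erich1 (-0.24) and the autophagy gene Atg5 (-0.19).

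Genes were then grouped by role, and for each list the median interaction stands beside 0.00161 for all genes, of which 50.7% were above 0. Of all genes, 6.97% were called higher in WT and 10.6% in KO kidneys, and 8.22% and 11.2% were called lower. This excess of KO calls over all genes was smaller without WT UUO 3818 and 3820, which were picked for their weak response. The range after a list median is that with 1 array left out. The 20 smooth muscle and myofibroblast genes had a median interaction of 0.12 (range 0.10 to 0.22), with 18 above 0 and 5 at an unadjusted p under 0.05. Their median response was 0.17 in WT and 0.28 in KO kidneys, with 8 and 11 called higher. For the 36 collagen and matrix genes the median was 0.25 (range 0.13 to 0.29), 28 were above 0 and 1 had p under 0.05, and 16 rose in WT against 21 in KO. Matrix genes are made chiefly by fibroblasts and pericytes. Col3a1 rose by 0.84 and 1.301, and after UUO the KO kidneys (8.09, 8.65, 8.36, 8.32 and 8.30) lay above all WT UUO kidneys (interaction 0.46, exact p 0.0152, controls 0.058, UUO 0.52). Col1a2 had responses of 0.24 in WT and 0.79 in KO kidneys, and its interaction was 0.55 (adjusted p 0.973, exact p 0.0206, controls -0.043, UUO 0.50), 0.87 in set 1 and 0.31 in set 2. Col1a1 had 0.46 (exact p 0.373, controls 0.33, UUO 0.80), moving from 0.12 without KO control 3813 to 0.81 without KO control 3814. The matrix median was 0.38 in set 1 and 0.13 in set 2, and the smooth muscle median 0.20 and 0.14.

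Summed intensity of the 20 smooth muscle genes, of which Tpm1 had the highest intensity, was 7044 and 7684 in WT and 7046 and 6962 in KO controls. After UUO it was 7262 to 11175 (median 9371) in WT and 11231 to 11832 (median 11724) in KO kidneys. Acta2 and Tagln, named above, belong to this list, so its sum moves with them in part by construction. No sum without them is given, and the part of the list in the result was not tested. A change in the number of such cells and a change in RNA per cell cannot be told apart in whole-kidney RNA.

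**Figure D5:**
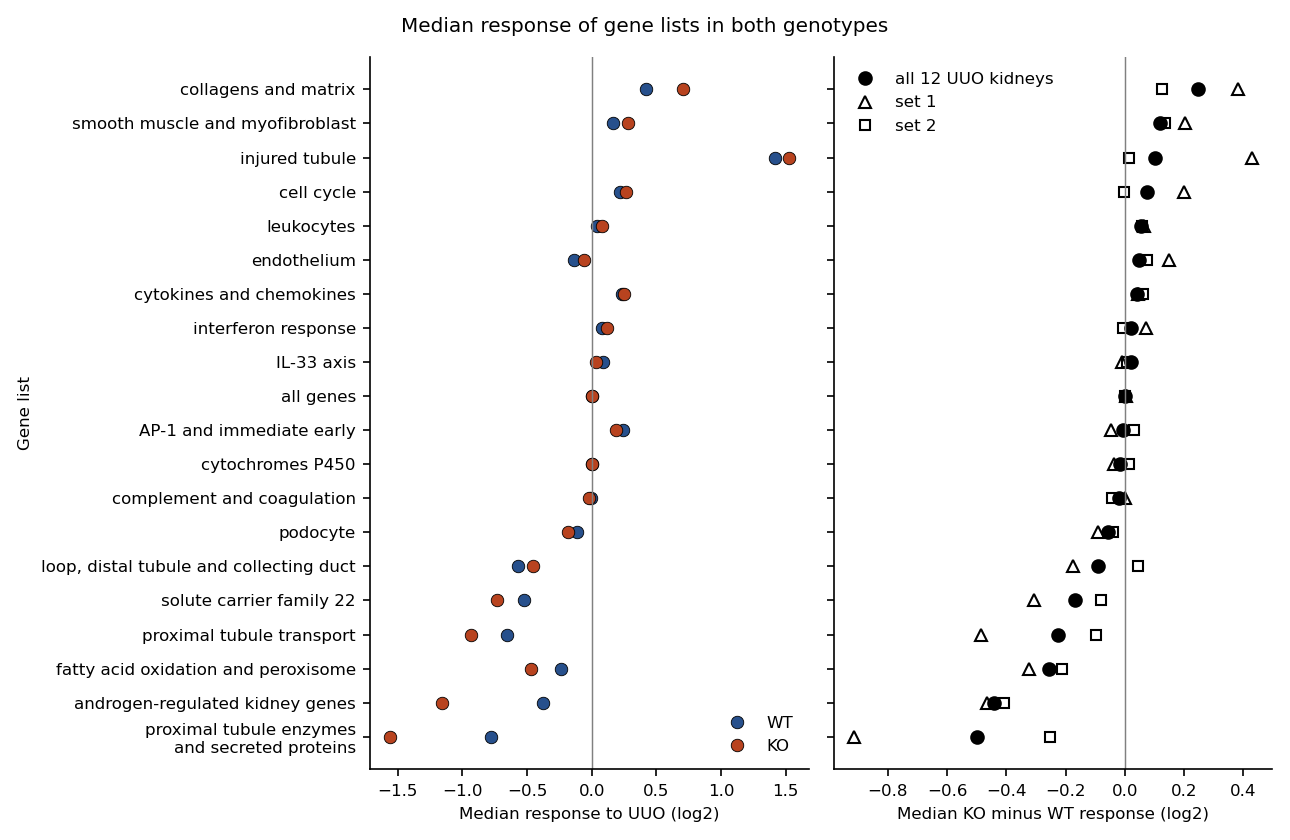
Median log2 response of gene lists in WT and KO kidneys (left) and median interaction with all arrays, set 1 only and set 2 only (right), with all genes for reference. Proximal tubule enzymes and secreted proteins had the lowest median, -0.50, with -0.91 in set 1 and -0.25 in set 2.

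Proximal tubule lists lay on the other side of 0. Of the 33 genes for enzymes and secreted proteins 31 had an interaction below 0 (median -0.50, range -0.60 to -0.38, 3 at p under 0.05), with median responses of -0.78 in WT and -1.56 in KO kidneys and 16 and 24 genes called lower. Of the 33 transport genes 28 were below 0 (median -0.23, range -0.35 to -0.16), and 10 fell in WT against 21 in KO. These genes make the reabsorbing and energy-hungry cell of the nephron what it is. Fatty acid oxidation and peroxisome genes gave 34 of 37 below 0 (median -0.25, range -0.33 to -0.17), and the solute carrier family 22 gave 12 of 16 (median -0.17, range -0.20 to -0.10). The list medians differed between sets: -0.91 in set 1 and -0.25 in set 2 for enzymes and secreted proteins, -0.48 and -0.10 for transport. Without WT UUO 3818 and 3820 they were -0.28 and -0.14. In the controls the medians were close to 0, -0.023 and -0.02, so in these lists the difference lay in the obstructed kidneys.

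Slc22a6 encodes OAT1, the organic anion transporter of the basolateral membrane. It fell in KO kidneys by 1.70 and had a WT response of -0.65 that was not called, with an interaction of -1.05 (95% CI -1.88 to -0.22, exact p 0.00253) and a UUO difference of -0.91 against 0.13 in the controls. Slc22a12, the urate transporter gene, had -0.81 (exact p 0.0021, controls 0.17, UUO -0.64). Ttr, the transthyretin gene, fell in both genotypes, -2.02 in WT and -3.83 in KO, and its interaction was -1.81 (exact p 0.00105, controls 0.49, UUO -1.32). Gldc, the glycine decarboxylase gene, read 9.61, 9.39, 9.44, 9.37 and 9.38 in KO UUO kidneys, below all WT UUO kidneys at 9.68 to 12.16 (median 10.51). Its interaction was -1.18 (95% CI -2.52 to 0.17, exact p 0.0135), with a KO minus WT difference of -0.012 in the controls and -1.19 after UUO. The phosphate transporter gene Slc34a1 had -0.94 (95% CI -1.90 to 0.020, exact p 0.00947, controls 0.034, UUO -0.91). The aminopeptidase gene Anpep had -0.83 (exact p 0.00842, controls 0.24, UUO -0.59). For Gldc and Slc34a1 the CI included 0. Among peroxisomal genes Mpv17l had -0.86 (exact p 0.00421, controls 0.22, UUO -0.64), and Eci3, an enoyl-CoA isomerase gene, had -1.35 (exact p 0.0143, controls 0.29, UUO -1.06), which moved to -0.85 without KO control 3813 and -1.86 without KO control 3814.

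Of the 25 injured-tubule genes, 18 were called higher in WT and 19 in KO kidneys. Havcr1, the gene of KIM-1, rose by 5.78 in WT and 6.52 in KO kidneys, and Lcn2, the lipocalin NGAL, by 5.61 and 5.91. Their interactions, 0.74 (exact p 0.192, controls -0.0093, UUO 0.73) and 0.31 (exact p 0.42, controls 0.037, UUO 0.35), were smaller without the WT kidneys picked for a weak response. For Havcr1 the value was 1.46 in set 1, 0.21 in set 2 and 0.19 without WT UUO 3818 and 3820, and for Lcn2 it turned from 0.92 in set 1 to -0.13 in set 2 and -0.029 without these kidneys. The list had a median interaction of 0.10 (range 0.055 to 0.20), 16 above 0 and 0 at p under 0.05, against 0.015 in set 2. Vcam1, an adhesion molecule of injured tubules, had 0.79 (exact p 0.0173, controls -0.11, UUO 0.68).

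Distal segments gave medians nearer to 0. For the 27 genes of the loop, distal tubule and collecting duct the median interaction was -0.091 (range -0.12 to -0.0069) with 0 genes at p under 0.05, -0.17 in set 1 and 0.044 in set 2, so its sign depended on the set. Kl, the distal tubule gene for klotho, fell in both genotypes, -1.27 and -1.88, with an interaction of -0.61 (exact p 0.00694, controls 0.11, UUO -0.50). The 8 podocyte genes had a median of -0.056 (range -0.11 to -0.027), 7 below 0. For the 16 endothelial genes it was 0.048 (range 0.019 to 0.13), 11 above 0 and 2 with p under 0.05, and it was 0.15 in set 1 and 0.074 in set 2. Plvap, of fenestrated capillaries, rose in KO kidneys by 0.31 and had an interaction of 0.32 (exact p 0.00168, controls -0.14, UUO 0.18), while Esam had 0.39 (exact p 0.11, controls -0.35, UUO 0.038), and 0.25 without KO control 3814.

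By its median, the IL-33 axis lay near 0. Its 25 genes, the deleted Il33 among them, had a median interaction of 0.02 (range 0.0069 to 0.049), 14 above 0 and 2 with p under 0.05. These 2 were Il33 itself, whose interaction follows from the deletion, and Il13. In set 1 the median was -0.0097. Il1rl1, which encodes the receptor ST2, had -0.046, with responses of 0.082 in WT and 0.035 in KO kidneys (controls 0.027, UUO -0.019). Il13, a type 2 cytokine, had -0.22 (exact p 0.0372, controls 0.16, UUO -0.062), or -0.12 without WT control 3811, with all UUO values near the median of the table. For the 27 other cytokines and chemokines the median was 0.041 (range 0.022 to 0.12), 18 above 0 and 1 with p under 0.05, and 9 rose in WT against 13 in KO. Ccl28 had -0.46 (exact p 0.0139, controls 0.32, UUO -0.14) and Cx3cl1, which rose in both genotypes, 0.35 (exact p 0.029, controls -0.10, UUO 0.26), or 0.22 without KO control 3813. The monocyte attractant gene Ccl2 had 0.24 (exact p 0.0267, controls -0.068, UUO 0.17), and Il6 had -0.038 (exact p 0.82, controls -0.071, UUO -0.11).

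Leukocyte genes had a median interaction of 0.054 (range 0.048 to 0.083, and 0.256 from the brighter genes of the list alone), with 25 of 33 above 0 and 2 at p under 0.05, and 4 rose in WT against 12 in KO kidneys. Their summed intensity, led by Laptm5, was 7071 and 7080 in WT and 6660 and 6337 in KO controls, 8743 to 14078 (median 10650) in WT UUO and 9750 to 14321 (median 13071) in KO UUO kidneys. Lyz2, the lysozyme gene of macrophages and neutrophils, rose in KO kidneys by 1.501 with an interaction of 1.15 (exact p 0.00484, controls -0.46, UUO 0.69), and Tyrobp, a signalling adaptor of myeloid cells, had 0.63 (exact p 0.00274, controls -0.25, UUO 0.38). The part of the leukocyte genes in the other results was not tested.

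The 28 interferon response genes had a median interaction of 0.021 (range -3.7e-04 to 0.053, 2 with p under 0.05, 8 called higher in WT and 5 in KO), which was -0.0073 in set 2 and -3.7e-04 without WT UUO 3820. Ifit3 had 0.51 (exact p 0.0581, controls -0.38, UUO 0.13) and Mx2 0.24 (exact p 0.077, controls -0.20, UUO 0.04). For the 28 complement and coagulation genes the median was -0.019 (range -0.031 to 0.0079), and 0.0025 in set 1, and 3 genes had p under 0.05. Proc, the protein C gene, fell in both genotypes without overlap after UUO and had -0.40 (exact p 2.1e-04, controls 0.082, UUO -0.31). Serpinf2, the antiplasmin gene, had -0.77, with responses of -0.80 and -1.57 (controls 0.19, UUO -0.58), and C2 had 0.52 (exact p 0.101, controls -0.46, UUO 0.058). AP-1 and immediate early genes, 28 in all, had -0.0055 (range -0.044 to 0.019), and 0.032 in set 2, with 10 called higher in WT and 8 in KO kidneys. Sgk1, a kinase gene induced by steroids and osmotic stress, had -0.79 (exact p 0.00358), the difference lying more in the obstructed kidneys (-0.66) than in the controls (0.14), and the EGF receptor inhibitor gene Errfi1 had -0.49 (exact p 0.124, controls -0.17, UUO -0.67), or -0.29 without KO control 3814. These lists gave no common direction.

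Among stress and growth lists, the 26 cell cycle genes had a median interaction of 0.076 (range 0.041 to 0.10), 21 above 0 and 0 with p under 0.05, and -0.0016 in set 2. Tyms had -0.12 (exact p 0.0777, controls 0.072, UUO -0.051), or -0.076 without KO control 3814, and Ccnd2 -0.18 (exact p 0.213, controls 0.17, UUO -0.008), or -0.11 without WT control 3811. Heat shock and unfolded protein genes (22) had 0.14 (range 0.042 to 0.27), which turned to -0.023 without WT UUO 3818 and 3820. The chaperone gene Dnajb9 had 0.76 (exact p 0.153), nearly all of it from the controls (-0.74, against 0.019 after UUO). For NRF2 and metallothionein genes (21) the median was -0.028 (range -0.067 to 0.011), and 0.0034 in set 1. Gsta1 and Gsta2, glutathione transferase genes, rose in KO kidneys by 2.26 and 1.38, with interactions of 1.16 (exact p 0.00842, controls -0.03, UUO 1.13) and 0.72 (exact p 0.0162, controls -0.34, UUO 0.37). The 20 clock genes had 0.0089 (range -0.0061 to 0.054), and -0.027 in set 1. Dbp, an output gene of the clock, rose in KO kidneys by 2.07 and had an interaction of 1.35 (exact p 0.0389), 0.65 in set 1 and 1.85 in set 2. Its KO minus WT difference was -1.03 in the controls and 0.32 after UUO. Npas2, the clock gene with the smallest interaction p, went the other way. It had a KO response of -0.45 and an interaction of -0.38 (exact p 0.053, controls 0.31, UUO -0.064). The hour of harvest is not given in the labels.

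The 13 androgen-regulated kidney genes had a median interaction of -0.44 (range -0.54 to -0.29), with 10 below 0 and 3 at p under 0.05, and median responses of -0.37 in WT and -1.16 in KO kidneys. Many of them are made in the proximal tubule, and Kap had the highest intensity. Kap had -0.40 (exact p 0.0206, controls 0.24, UUO -0.16) and Odc1, which fell in both genotypes without overlap after UUO, -0.48 (exact p 0.0168, controls 0.17, UUO -0.31). The Odc1 value moved to -0.24 without KO control 3813 and -0.72 without KO control 3814, and its KO controls read 13.66 and 13.18. Cyp2e1 had -0.84 (exact p 0.00905, controls -0.031, UUO -0.88). Cyp4a12b, another cytochrome P450 gene, went the other way, with 0.76 (unadjusted limma p 0.041). The 76 cytochrome P450 genes had a median of -0.017 (range -0.03 to -0.0035), 0.015 in set 2 and -0.158 from the brighter genes of the list alone. The 5 sex chromosome genes had a median of 0.048 (range 0.0069 to 0.074), and Ddx3y was read at 8.46 to 9.02 in all arrays.

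Lists for other tissues served as checks of the dissection. The 7 blood genes had a median interaction of -0.21 (range -0.59 to -0.072), -1.02 in set 1 and 0.052 in set 2, and their sum, led by Hba-a1, was 4208 to 20962 (median 8532) in WT UUO and 4963 to 13751 (median 7040) in KO UUO kidneys, against 21249 and 13584 in WT and 20779 and 19716 in KO controls. The blood genes thus varied between kidneys, and their part in the result was not tested. Fat (8 genes, median 0.012, range -0.021 to 0.052) and adrenal genes (8, median 0.0098, range -0.043 to 0.036) changed sign when single arrays were left out. The 8 urothelial genes were all below 0 (median -0.053, range -0.082 to -0.038), with 5 called lower in KO and 0 in WT kidneys, and their median KO minus WT difference was 0.10 in the controls and 0.049 after UUO.

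In sum, limma called no interaction in these 16 arrays, and Il33 was called only when WT kidney 3818 was not used. The response to UUO was larger in KO kidneys by the medians of the genes that rose and fell, most of all in set 1, where WT 3818 and 3820 responded weakly, and this difference of medians was not tested. Of the 79 named genes, most of which were chosen by a small interaction p, 10 did not overlap between the genotypes after UUO, against 137 (0.756%) of all genes, and the choice by p favours such genes. Acta2, Cd248, Tagln, Col3a1 and Mrpl3 were higher in the obstructed KO kidneys, and Il33, Gldc, Acad9, Proc and Odc1 were lower. The limits are the 2 controls of each genotype, whose set, and so their match to the obstructed kidneys, is not stated, and the mix of cells in whole-kidney RNA.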

How the data were processed

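RNA from 16 mouse kidneys was hybridized to MouseRef-8 v2 BeadChips, 1 array per kidney. The deposited values are the authors' intensity table, which the submitters' processing notes credit to BeadStudio 2. Background correction, normalization and the joining of probes to genes are not given in the sources used here. The table has 18132 genes. Names were matched to RefSeq for 14305, through a synonym for 2660, and kept as in the table for 1167. Intensities ran from 95.4754 to 23470.71, and 50% of log2 values lay under 7.053, so many genes sit near the floor of 6.589. Intensities were quantile-normalized and taken to log2 in R 4.3.3, and means of 4 groups were fitted with limma 3.58.1 (lmFit, eBayes). The contrasts were the interaction, each genotype's response and the mean response, each adjusted by Benjamini-Hochberg over all genes, with a call at an adjusted p under 0.05. The fit was tested on simulated data. Exact p-values permuted genotype labels within treatments.

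Named genes were Il33, the 12 genes with the smallest interaction p in each direction among the 50% of genes with the higher mean intensity, the 2 genes with the smallest p of each role list, and 12 genes taken for their known roles. Genes that the rule picked and that are not reported here were not replaced. Lists and named genes were chosen with earlier results of these data known. Alternatives changed the normalization, background, scale, gene filter, prior variance, array weights, set of mice, threshold and arrays used. Leaving out WT UUO 3818 and 3820 together was chosen after the data were seen. Python 3.11.15 with numpy 2.4.6, pandas 2.3.3, scipy 1.17.1 and matplotlib 3.10.9 made the tables and plots.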

Additional observations from a re-analysis of the deposited data

Results flagged for a closer look

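In 12 of 162 groups tested, 1 kidney lay far from the others of its group for its gene, where chance gives about 1 in 20, or 8.1. Of these, 3 came from WT UUO 3820 and 5 from KO UUO 3821. In WT UUO kidneys, Il33 in 3818 read 8.386 on the log2 scale against 9.105 to 9.575 in the others. Kidney 3820 read 11.54 for the fatty acid gene Eci3 (others 9.771 to 10.48), 10.42 for the injury gene Havcr1 (12.84 to 13.95) and 7.596 for the cytokine gene Il6 (6.88 to 7.153). For the cyclin gene Ccnd2, kidney 3819 read 7.868 (others 7.366 to 7.556).

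In KO UUO kidneys, 3821 read 11.3 for Ivns1abp (others 10.94 to 11), 6.93 for Lipt1 (7.088 to 7.147), 9.446 for the podocyte gene Podxl (9.713 to 9.778), 13.3 for the androgen-regulated gene Kap (13.72 to 13.82) and 9.612 for Gldc (9.374 to 9.441). Kidney 3898 read 9.24 for Kars (others 9.395 to 9.411), and 3899 read 12.97 for Lcn2 (others 13.5 to 13.7). WT 3820 was thus low for an injury gene and high for a metabolic gene, and the cause was not tested.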

How the results depend on the processing

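The count of 0 interactions at an adjusted p under 0.05 held under most alternatives. It was 2 (Gpd2 and Il33) with set 2 only, 1 (Il33) without WT UUO 3818 and 3820, and 0 to 1 when each array was left out. WT response calls were 188 with set 1, 4241 with set 2 and 809 to 3578 with each array left out. KO calls were 2258 with set 1 and 2276 to 4294 with each array left out, mean response calls 3225 with set 1 and 4196 to 5457, and calls in both genotypes 178 with set 1, 3431 with set 2 and 750 to 3017. The median interaction of the genes that rose was 0.1955 in set 1 and 0.08267 to 0.1278 with each array left out, and that of the genes that fell kept its sign, -0.1466 to -0.04803. Of 2047 values of 79 named genes, 2036 kept direction and side of the threshold, 3 passed it (Il33, -1.79 to -1.21 over the alternatives on a log2 scale) and 8 turned: Lcn2 in set 2 (-0.1318) and without WT UUO 3818 and 3820 (-0.0293), Il6 with array weights (0.00415), in set 2 (0.0633), without 3818 and 3820 (0.008171) and with each array left out (-0.07816 to 0.04118), Ptpro (-0.2007 to 0.01344) and Upk1a (-0.1496 to 0.002872) with each array left out. Of 27 list medians, 13 changed sign under some alternative and 14 kept it. The cause of these changes was not tested. Where a control is left out, the lone control is assumed to vary like the other groups. No paired analysis was possible because the groups share no replicate numbers, and with set as a covariate among the UUO arrays there were 0 interactions, 1993 WT calls and 3362 KO calls. These counts of WT and KO calls depend on the controls being coded like set 1. Size depended on the treatment of dim genes. With background subtracted 17 of the 79 named interactions more than doubled, among them Ccl28 (-1.051), Lipt1 (-0.7255), Mas1 (-0.6981), Mx2 (0.6443), Ccl2 (0.5849) and Il13 (-0.5453), and from brighter genes alone 23 of 26 list medians lay further from 0.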

Other observations

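The values here belong to genes chosen after all values had been seen. Bcl6, the gene of a transcriptional repressor, had an interaction of -1.51 (95% CI -2.46 to -0.56, exact p 0.017). KO controls read 10.27 and 10.59 and WT controls 9.68 and 9.08, and the difference was 1.05 in the controls and -0.46 after UUO. Gadd45g, a stress gene, had 1.23 (exact p 0.21), with -1.34 in the controls and -0.11 after UUO. Gpd2, the mitochondrial glycerol-3-phosphate dehydrogenase gene, had -1.09 (exact p 0.197), and its KO controls (8.62 and 8.54) stood above its WT controls (7.52 and 7.32). The Gpd2 difference was 1.16 in the controls and 0.068 after UUO. Other genes looked at in the same way were Socs2, with 0.04 (exact p 0.901, controls 0.11, UUO 0.15), and the clock genes Per1, with -0.012 (exact p 0.988, controls -0.42, UUO -0.43), and Per3, with 0.0055 (exact p 0.973, controls -0.10, UUO -0.093). Like Cish, Bcl6, Gadd45g and Gpd2 differed between genotypes chiefly in the controls, 2 per genotype.

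The 59 cytosolic ribosomal protein genes had a median interaction of 0.25, with 52 above 0 and 18 (30.5%) at an unadjusted p under 0.05, and 36 rose in WT against 46 in KO kidneys. Their median was 0.36 in set 1 and 0.14 in set 2. The 72 mitochondrial ribosomal protein genes had a median of -0.0072, with 35 above 0 and 4 at p under 0.05. For all genes the median was 0.00161 and 4.74% had p under 0.05. No cause of these values was tested.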
